A study of Homo sapiens with 18 samples.

Results

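The proteasome subunit genes are the genes whose symbols begin with PSMA, PSMB, PSMC, PSMD, PSME, PSMF or PSMG followed by a number. They encode the subunits of the proteasome together with its activators, its inhibitor and the chaperones that assemble it. A row of the expression table, which summarises the probes of 1 transcript and is called a cluster below, was taken as a member when every symbol that the probe table gives it has this form. This gave 51 clusters of the 21214 that carry a symbol. They stand for 45 genes. The inducible subunits PSMB8 and PSMB9 are each listed 3 times with identical values, so 47 clusters hold distinct values, and counts below are over these 47 unless 51 is given. PSMC1 and PSMC6 are each measured by 2 clusters, and their gene families include near-identical copies, so which locus each of the 2 detects was not analysed. No member carries several symbols, and no filter on low values was applied, so every member was tested. PSMC5, PSMD7 and PSMD13 were not analysed here.

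The cells were HEK293, a line of human embryonic kidney origin with adenovirus sequences in its genome. They were transiently transfected, using Lipofectamine 2000, with an expression plasmid for RHOXF1, with one for RHOXF2, or with a control vector, and RNA was taken 24 h or 48 h later. RHOXF1 and RHOXF2 encode homeodomain transcription factors of the reproductive homeobox cluster on the X chromosome and are known from germ cells. This gives 6 groups of 3 arrays, 18 in all: control, RHOXF1 and RHOXF2 at 24 h and the same at 48 h, which the labels call biological triplicates. All groups share the transfection, the share of cells that took up plasmid is not given, and whether the RHOX plasmids also encode the fluorescent protein of the control vector is not stated. The groups are called control, RHOXF1 and RHOXF2 cells. They allow 2 questions of the proteasome genes: how their RNA moved between 24 h and 48 h after transfection in each kind of cell, and whether it differed between RHOX and control cells at the same time.

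The proteasome is the main protease of the cytosol and nucleus. Its core particle is a barrel of stacked rings, in which the outer alpha rings form the gate and the inner beta rings hold the proteolytic sites. The regulatory particle caps the barrel: its base carries a ring of ATPases that unfold substrates, and its lid removes the ubiquitin chain that marked them. In many cells the subunit genes are transcribed together, and the transcription factor NRF1, encoded by NFE2L1, raises them when proteasome activity is short through antioxidant response elements in their promoters. Interferon-gamma induces an alternative set of catalytic subunits, PSMB8, PSMB9 and PSMB10, which form the immunoproteasome and change the peptides offered on class I molecules.

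Because many members moved together in time, the RefSeq promoters of those with the 3 largest falls in control cells, PSMD1, PSMC4 and PSME3, and of PSMB8, the member that rose, are shown first. Each is the 250 bases before a start site in build GRCh38.p14, written 5′ to 3′ on the strand of the gene, and PSMB8 has 2 start sites. PSMD1 is at chr2:231056617-231056866 on the plus strand, PSMC4 at chr19:39970915-39971164 on the plus strand and PSME3 at chr17:42833147-42833396 on the plus strand. The PSMB8 windows are on the minus strand, the first at chr6:32844680-32844929 and the second at chr6:32844048-32844297. Capitals mark matches on either strand to 4 motifs: the antioxidant response element core TGANNNNGC, the CCAAT box CCAAT, the heat shock element pair GAANNTTC and the interferon-gamma activated site TTCNNNGAA.
PSMD1: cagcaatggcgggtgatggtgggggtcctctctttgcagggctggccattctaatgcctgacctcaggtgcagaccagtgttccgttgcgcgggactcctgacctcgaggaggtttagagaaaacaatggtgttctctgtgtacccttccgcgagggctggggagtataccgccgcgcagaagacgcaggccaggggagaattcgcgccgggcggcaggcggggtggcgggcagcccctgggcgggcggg
PSMC4: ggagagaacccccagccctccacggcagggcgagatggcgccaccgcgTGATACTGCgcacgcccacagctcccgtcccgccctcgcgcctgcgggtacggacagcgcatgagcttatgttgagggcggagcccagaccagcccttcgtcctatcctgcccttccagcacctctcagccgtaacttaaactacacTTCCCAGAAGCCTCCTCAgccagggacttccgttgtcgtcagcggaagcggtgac
PSME3: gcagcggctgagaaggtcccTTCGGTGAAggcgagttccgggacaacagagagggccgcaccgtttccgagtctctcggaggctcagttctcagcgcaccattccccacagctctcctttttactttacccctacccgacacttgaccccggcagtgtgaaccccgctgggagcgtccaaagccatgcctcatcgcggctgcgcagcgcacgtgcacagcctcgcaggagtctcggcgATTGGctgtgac
PSMB8, first start: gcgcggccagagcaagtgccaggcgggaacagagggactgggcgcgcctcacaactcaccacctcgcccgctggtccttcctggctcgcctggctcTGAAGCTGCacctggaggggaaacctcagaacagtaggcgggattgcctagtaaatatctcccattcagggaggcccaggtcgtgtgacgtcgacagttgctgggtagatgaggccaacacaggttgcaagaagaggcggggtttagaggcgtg
PSMB8, second start: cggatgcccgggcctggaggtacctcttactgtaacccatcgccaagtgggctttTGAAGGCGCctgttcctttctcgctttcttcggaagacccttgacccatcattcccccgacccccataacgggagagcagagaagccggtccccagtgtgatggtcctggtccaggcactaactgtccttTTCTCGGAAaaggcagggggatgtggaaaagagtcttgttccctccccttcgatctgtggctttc

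The PSMD1 window held none of the 4 motifs, and neither did that of PSMC6, which had the next largest fall and is not printed. The PSMC4 window held the antioxidant response element core at positions -202 and -46, counted from -1 at the base before the start, and an interferon-gamma activated site at -55, which ends at the base before the second of these matches and shares no base with it. PSME3 had an interferon-gamma activated site at -230 and a CCAAT box at -12. Both PSMB8 windows held the antioxidant response element core, at -154 and at -195, and the second held an interferon-gamma activated site at -65. Windows were given for 39 of the 45 genes, 47 windows in all. The antioxidant response element core was in 28 of the 47 windows (59.6%) and in 35.2% of all 35116 promoter windows of the table. Among the 23 windows of genes that fell in control cells 12 held it, and among the other 24 windows 16 did. CCAAT was in 11 of the 23 and in 6 of the 24, which is 36.2% of the 47 windows against 32% of all windows. The interferon-gamma activated site was in 7 of 47 (14.9%) against 6.57% of all windows, and the heat shock pair was in 0 of 47 against 5.78%. These shares are descriptions of the sequence and were not tested.

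Expression is given as the deposited RMA value, which is on a log2 scale, so a difference of -1 is a halving. Array medians over all clusters ran from 6.68 to 6.82, and arrays of a group correlated at 0.9925 to 0.9975. RHOXF1 was 60.2-fold above control at 24 h and 70.7-fold at 48 h in RHOXF1 cells, and the cluster shared by RHOXF2 and its copy RHOXF2B was 64.6-fold and 78.6-fold above control in RHOXF2 cells. The RHOXF1 cluster was also 2.21-fold above control in RHOXF2 cells at 24 h, which did not pass (limma adjusted p = 0.449), and 3.58-fold at 48 h, which did (adjusted p = 0.0462). Of 6 genes that HEK293 cells are known to express, the neurofilament genes NEFL and NEFM lay above 99% of named clusters on every array, VIM above 96.1% and LIN28B above 79.5%. INA lay between the 49.8 and 69.9 percentiles, and PAX2 between 34.6 and 40.4. Of 10 markers of other cell types, 9 lay no higher than the 29.7 percentile on any array, from PTPRC within the lowest 3.73% to CD14, and COL1A1 lay between 53.3 and 59.1, above PAX2. RHOXF2 replicate 3 at 48 h stands apart. On the first principal component, which held 34.1% of the variance, the other 48 h arrays lay between 9.4 and 26.3, the 24 h arrays between -17.2 and -8.7, and this array at -4.48. The numbers of members called in RHOXF2 cells between the times and against control at 48 h, and the members' differences from control named there, are also given without it. The numbers in the array names run from 1 to 9 for the 24 h samples and from 16 to 24 for the 48 h samples. A batch of arrays and the time after transfection therefore cannot be told apart in any comparison of times.

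Taken as a median over the 47 clusters on each array, the proteasome genes were lower on every 48 h array than on the 24 h arrays of the same kind of cell. Relative to the mean of control cells at 24 h, the 3 control arrays at 24 h lay between -0.08 and 0.06, and the 3 at 48 h between -0.30 and -0.26. RHOXF1 arrays lay between -0.03 and 0.03 at 24 h and between -0.17 and -0.12 at 48 h. RHOXF2 arrays lay between -0.02 and 0.11 at 24 h, and at 48 h at -0.16, -0.20 and, for replicate 3, -0.06. At 48 h the control arrays were the lowest of the 3 kinds, with no overlap. The median over all named clusters stayed between -0.03 and 0.02 on all 18 arrays.

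**Figure D1:**
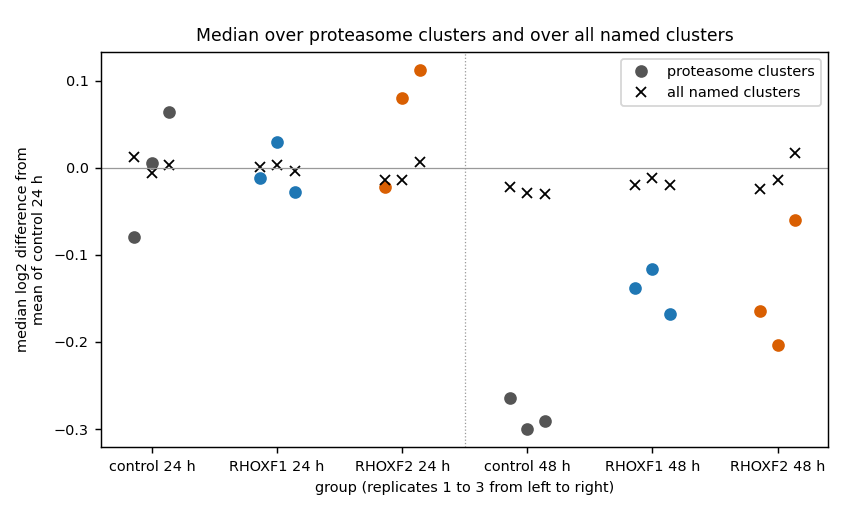
Median log2 difference of the 47 proteasome clusters from the mean of control cells at 24 h, 1 filled point per array, with the same median over all named clusters as a cross. The 3 control arrays at 48 h lie lowest, between -0.30 and -0.26, RHOXF2 replicate 3 at 48 h lies at -0.06, and the crosses stay between -0.03 and 0.02.

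In control cells, proteasome RNA was lower at 48 h than at 24 h across the alpha ring, the ATPase ring and the lid. Of the 47 distinct clusters, 24 fell and 0 rose (limma, 3 arrays against 3, Benjamini-Hochberg adjusted p under 0.05 over all 21214 named clusters). The same count is 24 of the 51 clusters, beside 7.89% of all named clusters that fell, 9.89% that rose and 17.8% called in either direction. The median difference was -0.27 over the 47 clusters and -0.03 over all named clusters. In all, 44 of the 47 were lower, beside 55% of all named clusters. For 27 every 48 h array lay below every 24 h array, beside 15.7% of all named clusters. The members are mostly bright clusters, and among named clusters above the median level 9.51% fell. Less RNA per cell and fewer cells carrying it cannot be told apart in these bulk samples. With each of the 6 control arrays left out in turn, the count was between 17 and 24, lowest without replicate 2 or replicate 3 at 24 h, and 14 clusters fell in all 6 of these fits.

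**Figure D2:**
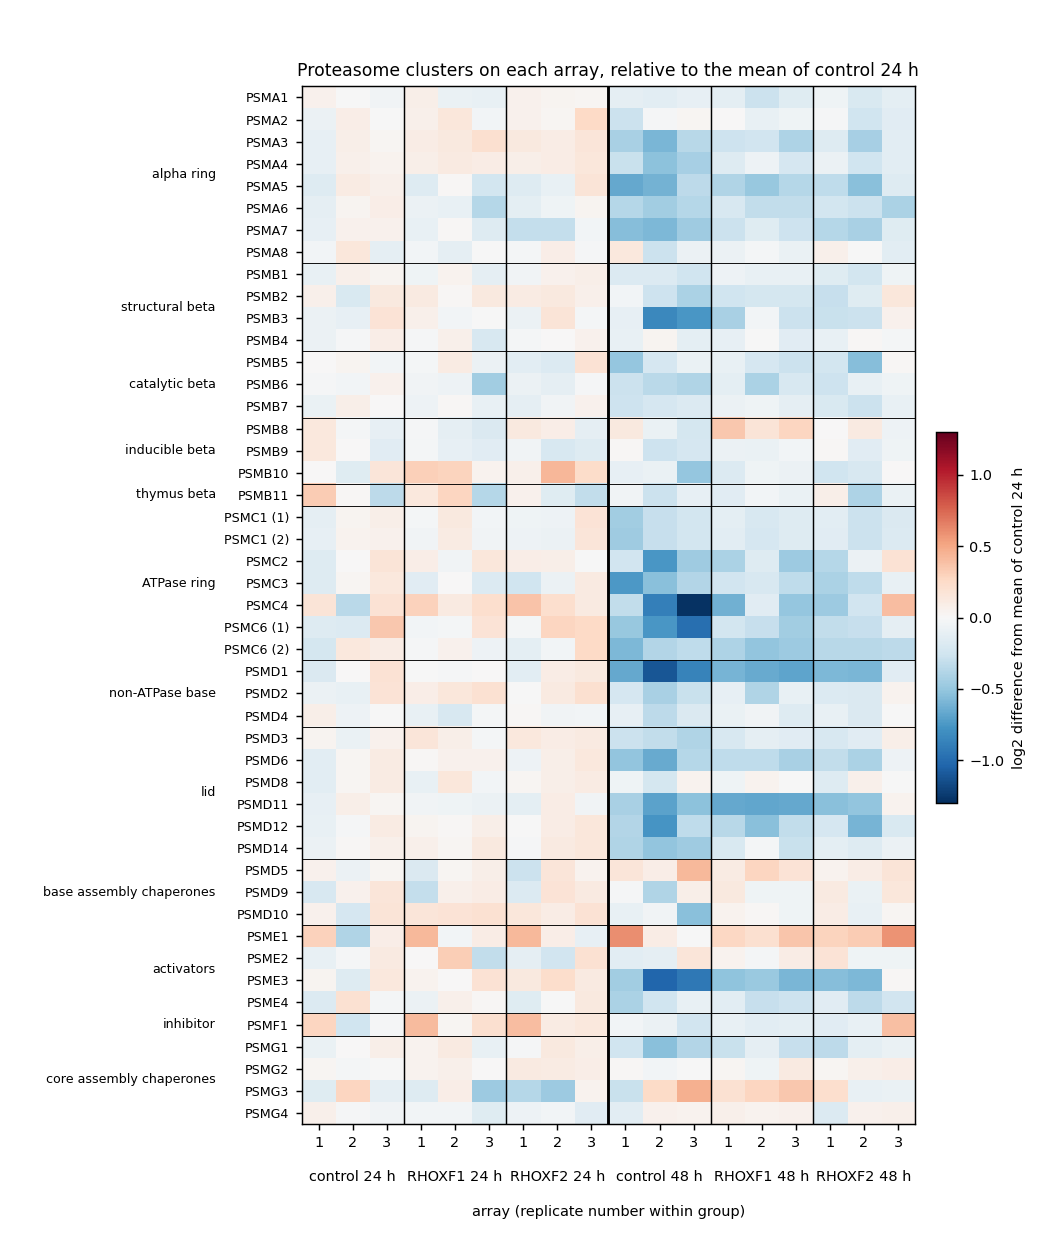
Log2 difference of each of the 47 proteasome clusters from its mean in control cells at 24 h, on each of the 18 arrays, ordered by role; blue is lower and red higher. The blue columns are the 48 h arrays, darkest in control cells for PSMD1, PSMC4, PSMC6 and PSME3, and paler for RHOXF2 replicate 3 at 48 h.

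In RHOXF1 cells, 7 of the 47 clusters fell between the times and 1, PSMB8, a cluster of low level, rose. Over the 51 clusters this is 10 called, since PSMB8 counts 3 times, beside 1.35% of all named clusters that fell, 3.06% that rose and 4.42% in either direction. The median was -0.18 over the 47 clusters, and 27 of them did not overlap between the times in the lower direction and 4 in the higher direction, beside 14.7% and 15.1% of all named clusters. In RHOXF2 cells only PSMA3 fell, 1 of 47, beside 0.259% of all named clusters that fell and 1.24% called in either direction. The median there was -0.20, and 19 of 47 did not overlap in the lower direction, beside 8.11%. Without RHOXF2 replicate 3 at 48 h, 6 clusters fell in RHOXF2 cells, namely PSMA3, PSMD1, PSMD6, PSMD11, PSMD12 and PSME3, and the median was -0.23. The share of all named clusters that fell without that array was not computed, so the 6 cannot be set beside it. The RHOXF1 count also rests on single arrays. It was 0 without replicate 3 at 24 h, 0 without replicate 3 at 48 h, 2 without replicate 2 at 24 h and 3 without replicate 1 at 48 h, so no call of RHOXF1 cells held in all 6 fits with 1 array left out. The comparisons of times in the 3 kinds of cell share no array, but each cluster has 1 estimate of the spread from all 18 arrays. Their calls are therefore not independent. All 7 clusters that fell in RHOXF1 cells were among the 24 that fell in control cells, and so was the 1 of RHOXF2 cells. The same overlap over all named clusters was not analysed.

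**Figure D3:**
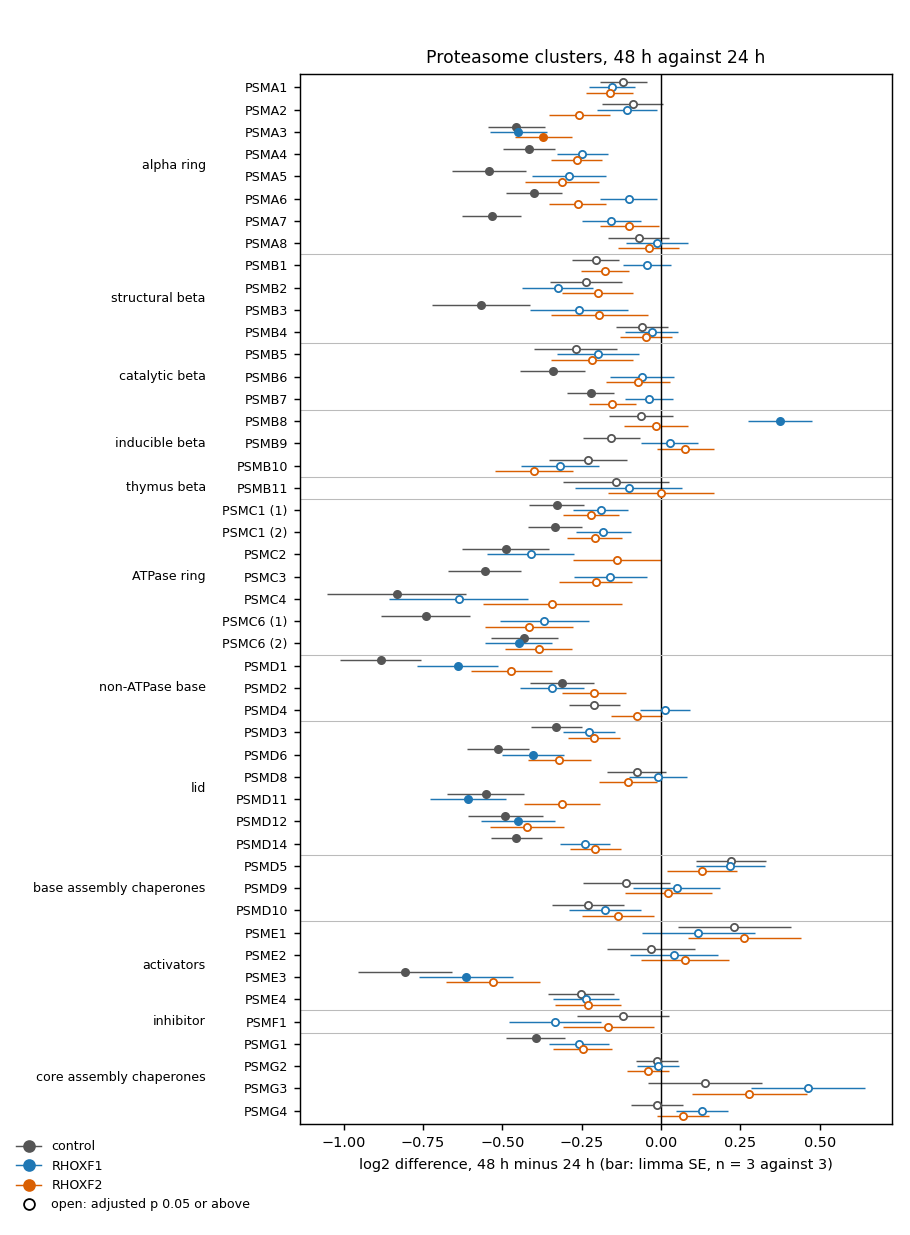
Log2 difference of each proteasome cluster at 48 h from 24 h in control, RHOXF1 and RHOXF2 cells, with limma's standard error; filled points have an adjusted p under 0.05. Most points lie left of 0 in all 3 kinds of cell, PSMD1, PSMC4 and PSME3 lie farthest left in control cells, and PSMB8 in RHOXF1 cells is the only filled point right of 0. PSMC1 (1) and (2) are clusters 7976189 and 8080923, and PSMC6 (1) and (2) are 7974380 and 8150870.

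Of the 8 alpha ring clusters, 5 fell in control cells. PSMA3, an alpha subunit, was called in all 3 kinds of cell. It measured 10.13, 10.32 and 10.27 in control cells at 24 h and 9.82, 9.65 and 9.88 at 48 h. PSMA3 in RHOXF1 cells went from 10.33, 10.36 and 10.45 to 9.97, 9.99 and 9.84, and in RHOXF2 cells from 10.37, 10.33 and 10.40 to 10.08, 9.81 and 10.10. Every 48 h array lay below every 24 h array of its kind. The differences were -0.46 ± 0.09 (SE, limma adjusted p = 0.00277) in control, -0.45 ± 0.09 (adjusted p = 0.0123) in RHOXF1 and -0.37 ± 0.09 (adjusted p = 0.0482) in RHOXF2 cells. The RHOXF2 call was kept without replicate 3 at 48 h and lost without any 1 of the other 5 arrays (adjusted p up to 0.239), and it was lost after repeated quantile normalization and cyclic loess. The RHOXF1 call was lost without replicate 3 at 24 h or at 48 h (adjusted p up to 0.0733). PSMA7, also of the alpha ring, read 10.30, 10.45 and 10.45 in control cells at 24 h and 9.85, 9.81 and 9.94 at 48 h. With RHOXF1 it read 10.31, 10.42 and 10.24 at 24 h and 10.12, 10.24 and 10.13 at 48 h, and with RHOXF2 10.09, 10.09 and 10.36 at 24 h and 10.03, 9.98 and 10.24 at 48 h. Only the control arrays were separated by time, and the difference there was -0.53 ± 0.09 (adjusted p = 0.00147), against -0.16 ± 0.09 (adjusted p = 0.37) and -0.10 ± 0.09 (adjusted p = 0.644) in RHOXF1 and RHOXF2 cells.

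PSMA4, PSMA5 and PSMA6 are further alpha subunits, and each fell in control cells. PSMA4 values in control cells were 11.36, 11.53 and 11.51 at 24 h and 11.18, 10.93 and 11.04 at 48 h. They were 11.54, 11.58 and 11.56 at 24 h and 11.29, 11.40 and 11.24 at 48 h in RHOXF1 cells, and 11.54, 11.57 and 11.61 at 24 h and 11.38, 11.21 and 11.33 at 48 h in RHOXF2 cells. The times did not overlap in any kind of cell, but only the control difference passed (-0.42 ± 0.08, adjusted p = 0.00263). PSMA5 gave 9.62, 9.89 and 9.85 in control cells at 24 h and 9.12, 9.18 and 9.44 at 48 h. In RHOXF1 cells PSMA5 gave 9.63, 9.81 and 9.55 at 24 h and 9.39, 9.30 and 9.42 at 48 h, and in RHOXF2 cells 9.62, 9.69 and 9.95 at 24 h and 9.46, 9.25 and 9.62 at 48 h. It fell by 0.54 ± 0.12 in control cells (adjusted p = 0.00468). PSMA6 measured 10.76, 10.90 and 10.96 in control cells at 24 h and 10.51, 10.42 and 10.50 at 48 h. Its RHOXF1 values were 10.80, 10.78 and 10.50 at 24 h and 10.67, 10.55 and 10.55 at 48 h, and its RHOXF2 values 10.75, 10.82 and 10.91 at 24 h and 10.63, 10.60 and 10.46 at 48 h. PSMA6 fell in control cells (-0.40 ± 0.09, adjusted p = 0.00592), and RHOXF1 cells overlapped between the times.

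The remaining alpha members did not pass. PSMA1, which ranked among the lowest against control at 48 h, measured 11.47, 11.40 and 11.36 in control cells at 24 h and 11.29, 11.27 and 11.31 at 48 h. For RHOXF1 cells PSMA1 was 11.49, 11.32 and 11.31 at 24 h and 11.28, 11.13 and 11.25 at 48 h, and for RHOXF2 cells 11.47, 11.44 and 11.43 at 24 h and 11.36, 11.21 and 11.29 at 48 h. All 3 kinds were separated by time, with a control difference of -0.12 ± 0.07 (adjusted p = 0.267). PSMA8, the alpha subunit of testis proteasomes that takes the place of PSMA7 in germ cells, lay between 3.17 and 3.60 on the 18 arrays. PSMA8 read 3.40, 3.60 and 3.33 in control cells at 24 h and 3.58, 3.17 and 3.37 at 48 h. With RHOXF1 PSMA8 read 3.41, 3.33 and 3.44 at 24 h and 3.37, 3.41 and 3.36 at 48 h, and with RHOXF2 3.42, 3.53 and 3.43 at 24 h and 3.51, 3.44 and 3.31 at 48 h. These groups all overlapped. PSMA8 against control was 0.01 ± 0.10 with RHOXF1 and 0.04 ± 0.10 with RHOXF2 at 48 h (adjusted p = 0.994 and 0.896). The control time difference of PSMA2 was -0.09 ± 0.10 (adjusted p = 0.535).

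Of the structural beta subunits, 1 of 4 fell in control cells. This was PSMB3, at 11.16, 11.12 and 11.41 in control cells at 24 h and 11.12, 10.40 and 10.47 at 48 h. RHOXF1 cells gave PSMB3 values of 11.30, 11.20 and 11.23 at 24 h and 10.81, 11.19 and 10.96 at 48 h, and RHOXF2 cells 11.15, 11.40 and 11.20 at 24 h and 10.94, 10.95 and 11.28 at 48 h. The control difference was -0.57 ± 0.15 (adjusted p = 0.0178), and replicate 1 at 48 h lay close to the 24 h arrays while the other 2 lay well below them. The call was lost without replicate 3 at 24 h and without replicate 2 or 3 at 48 h (adjusted p up to 0.0872). PSMB1, PSMB2 and PSMB4 differed by -0.21 ± 0.08, -0.24 ± 0.11 and -0.06 ± 0.08 in control cells and did not pass (adjusted p = 0.0646, 0.147 and 0.636).

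The constitutive catalytic subunits carry the proteolytic sites, and 2 of 3 fell in control cells. PSMB6, the caspase-like site, measured 11.49, 11.47 and 11.56 in control cells at 24 h and 11.23, 11.16 and 11.12 at 48 h. PSMB6 in RHOXF1 cells measured 11.46, 11.44 and 11.06 at 24 h and 11.38, 11.10 and 11.30 at 48 h, and in RHOXF2 cells 11.43, 11.39 and 11.49 at 24 h and 11.24, 11.41 and 11.45 at 48 h. Only control cells were separated by time (-0.34 ± 0.10, adjusted p = 0.028). The PSMB6 call was kept without control replicate 1 at 48 h and lost without any 1 of the other 5 control arrays (adjusted p up to 0.0887). PSMB7, the trypsin-like site, went from 11.37, 11.53 and 11.46 to 11.19, 11.24 and 11.28 in control cells. It went from 11.39, 11.48 and 11.36 to 11.38, 11.40 and 11.33 with RHOXF1, and from 11.34, 11.41 and 11.51 to 11.26, 11.18 and 11.36 with RHOXF2. The control difference of PSMB7 was -0.22 ± 0.07 (adjusted p = 0.048). It passed without replicate 1 at 24 h and did not pass without any 1 of the other 5 control arrays (adjusted p up to 0.161). PSMB5, the chymotrypsin-like site and main target of proteasome inhibitors, read 11.20, 11.23 and 11.16 in control cells at 24 h and 10.70, 10.98 and 11.11 at 48 h. RHOXF1 cells read 11.17, 11.30 and 11.12 at 24 h and 11.10, 10.98 and 10.92 at 48 h for PSMB5, and RHOXF2 cells 11.06, 11.02 and 11.38 at 24 h and 10.96, 10.64 and 11.21 at 48 h. PSMB5 was separated by time in control and RHOXF1 cells and did not pass in any (-0.27 ± 0.13, adjusted p = 0.153 in control cells).

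PSMB8 was the only member that rose in any comparison. This inducible subunit replaces PSMB5 in the immunoproteasome. Its cluster lay between the 10.4 and 17.1 percentiles of named clusters over the 18 arrays, a range that overlaps those of the T cell marker CD3E (14.7 to 19.1) and the endothelial marker PECAM1 (9.18 to 13.8), and it is not shown to be above background. It measured 4.69, 4.58 and 4.51 in RHOXF1 cells at 24 h and 5.06, 4.87 and 4.99 at 48 h, with every 48 h array above every 24 h array. In control cells it measured 4.84, 4.68 and 4.60 at 24 h and 4.83, 4.62 and 4.48 at 48 h, and in RHOXF2 cells 4.84, 4.79 and 4.59 at 24 h and 4.71, 4.82 and 4.63 at 48 h, both overlapping. The RHOXF1 difference was 0.38 ± 0.10 (adjusted p = 0.0415), against -0.06 ± 0.10 in control and -0.02 ± 0.10 in RHOXF2 cells. At 48 h the RHOXF1 arrays also lay above all control arrays, by 0.33 ± 0.10, which did not pass (adjusted p = 0.497). The test of whether the RHOXF1 effect on PSMB8 differed between the times gave 0.44 ± 0.14 (adjusted p = 0.95). With 1 array of the RHOXF1 groups left out in turn the rise was between 0.33 and 0.43, and it passed only without replicate 1 at 24 h or replicate 2 at 48 h.

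The other immunoproteasome subunits did not pass in any comparison. PSMB9, which replaces PSMB6, read 6.40, 6.26 and 6.12 in control cells at 24 h and 6.28, 5.99 and 6.05 at 48 h. PSMB9 with RHOXF1 read 6.24, 6.16 and 6.12 at 24 h and 6.19, 6.17 and 6.23 at 48 h, and with RHOXF2 6.22, 6.06 and 6.10 at 24 h and 6.28, 6.12 and 6.20 at 48 h. All of these overlapped, and the RHOXF1 time difference was 0.03 ± 0.09 (adjusted p = 0.913). PSMB10, which replaces PSMB7, gave 7.43, 7.27 and 7.59 in control cells at 24 h and 7.32, 7.34 and 6.93 at 48 h. PSMB10 gave 7.74, 7.71 and 7.48 at 24 h and 7.25, 7.37 and 7.35 at 48 h with RHOXF1, and 7.498, 7.86 and 7.67 at 24 h and 7.17, 7.22 and 7.43 at 48 h with RHOXF2. It was lower at 48 h without overlap in RHOXF1 (-0.32 ± 0.12, adjusted p = 0.142) and RHOXF2 cells (-0.40 ± 0.12, adjusted p = 0.104), and neither passed. PSMB11, the subunit of the thymus proteasome, lay between 4.52 and 5.25. PSMB11 read 5.25, 4.94 and 4.58 in control cells at 24 h and 4.88, 4.64 and 4.82 at 48 h. With RHOXF1 PSMB11 read 5.06, 5.20 and 4.55 at 24 h and 4.77, 4.89 and 4.83 at 48 h, and with RHOXF2 4.98, 4.77 and 4.61 at 24 h and 4.99, 4.52 and 4.84 at 48 h. All PSMB11 groups overlapped.

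All 7 clusters of the ATPase ring, which stand for 5 genes, fell in control cells. PSMC4 moved the most among them and was also the most scattered. It measured 11.19, 10.67 and 11.21 in control cells at 24 h and 10.70, 10.13 and 9.74 at 48 h. The RHOXF1 values of PSMC4 were 11.32, 11.13 and 11.24 at 24 h and 10.40, 10.87 and 10.52 at 48 h, and its RHOXF2 values 11.39, 11.24 and 11.14 at 24 h and 10.55, 10.78 and 11.42 at 48 h. The control times overlapped at 1 array each, and the difference of -0.83 ± 0.22, a 1.78-fold fall, passed (adjusted p = 0.0152). It did not pass without replicate 1 or 3 at 24 h or without replicate 3 at 48 h (adjusted p up to 0.0883). In RHOXF1 cells the times did not overlap, yet the difference of -0.64 ± 0.22 did not pass (adjusted p = 0.101). PSMC6 was measured by cluster 7974380 at 9.25, 9.24 and 9.78 in control cells at 24 h and 8.93, 8.67 and 8.45 at 48 h. That cluster read 9.39, 9.40 and 9.60 at 24 h and 9.18, 9.13 and 8.98 at 48 h with RHOXF1, and 9.40, 9.70 and 9.69 at 24 h and 9.11, 9.13 and 9.30 at 48 h with RHOXF2. Its times were separated in all 3 kinds of cell, by -0.74 ± 0.14 (adjusted p = 0.00213) in control cells, -0.37 ± 0.14 (adjusted p = 0.138) in RHOXF1 and -0.42 ± 0.14 (adjusted p = 0.133) in RHOXF2 cells. Cluster 8150870 of PSMC6 read 9.02, 9.39 and 9.34 at 24 h and 8.67, 8.87 and 8.92 at 48 h in control cells. With RHOXF1 the second cluster read 9.23, 9.31 and 9.18 at 24 h and 8.85, 8.74 and 8.78 at 48 h, and with RHOXF2 9.13, 9.22 and 9.51 at 24 h and 8.89, 8.90 and 8.91 at 48 h. It fell in control (-0.43 ± 0.11, adjusted p = 0.0102) and RHOXF1 cells (-0.45 ± 0.11, adjusted p = 0.0248). Its control call was lost without replicate 2 at 24 h (adjusted p = 0.0547), and its RHOXF1 call was kept only without replicate 1 at 24 h (adjusted p up to 0.0962 without the others). The 2 clusters disagree on which kinds of cell pass and on the comparison with control below.

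PSMC3, PSMC2 and PSMC1 are the other ATPases measured. PSMC3 went from 9.65, 9.84 and 9.95 to 9.06, 9.27 and 9.43 in control cells (-0.56 ± 0.12, adjusted p = 0.00386). RHOXF1 cells had PSMC3 at 9.66, 9.82 and 9.64 at 24 h and 9.56, 9.60 and 9.48 at 48 h, and RHOXF2 cells at 9.55, 9.74 and 9.93 at 24 h and 9.40, 9.49 and 9.72 at 48 h. The PSMC3 times were separated in control and RHOXF1 cells. PSMC2 went from 10.46, 10.63 and 10.81 to 10.38, 9.87 and 10.18 in control cells (-0.49 ± 0.14, adjusted p = 0.0209). It went from 10.72, 10.59 and 10.78 to 10.23, 10.47 and 10.16 with RHOXF1 and from 10.72, 10.71 and 10.63 to 10.26, 10.56 and 10.83 with RHOXF2. In RHOXF2 cells PSMC2 replicate 3 at 48 h lay above all 24 h arrays. The control call of PSMC2 was lost without replicate 2 or 3 at 24 h or replicate 2 at 48 h (adjusted p up to 0.103). The brighter PSMC1 cluster, 8080923, measured 10.07, 10.22 and 10.23 at 24 h and 9.71, 9.87 and 9.93 at 48 h in control cells (-0.33 ± 0.09, adjusted p = 0.0136). This cluster read 10.13, 10.28 and 10.12 at 24 h and 10.03, 9.95 and 10.00 at 48 h with RHOXF1 and 10.10, 10.10 and 10.33 at 24 h and 10.02, 9.89 and 9.99 at 48 h with RHOXF2. In neither kind of RHOX cell did the difference pass. Cluster 7976189 of PSMC1 ran close to it, at 9.98, 10.13 and 10.16 at 24 h and 9.63, 9.79 and 9.86 at 48 h in control cells (-0.33 ± 0.09, adjusted p = 0.0158). Its RHOXF1 arrays read 10.07, 10.21 and 10.06 at 24 h and 9.97, 9.88 and 9.93 at 48 h, and its RHOXF2 arrays 10.04, 10.03 and 10.27 at 24 h and 9.95, 9.81 and 9.90 at 48 h. Both PSMC1 clusters were separated by time in all 3 kinds of cell. Without control replicate 2 at 24 h neither passed, and cluster 7976189 did not pass without replicate 3 at 24 h or replicate 1 at 48 h either (adjusted p up to 0.0573).

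PSMD1, the large scaffold subunit of the base, had the largest fall of all members. It measured 10.52, 10.71 and 10.90 in control cells at 24 h and 10.04, 9.59 and 9.84 at 48 h. PSMD1 in RHOXF1 cells measured 10.70, 10.69 and 10.71 at 24 h and 10.10, 10.05 and 10.03 at 48 h, and in RHOXF2 cells 10.57, 10.80 and 10.84 at 24 h and 10.12, 10.11 and 10.57 at 48 h. The times did not overlap in any kind of cell, and replicate 3 of RHOXF2 at 48 h lay close to the lowest 24 h value. PSMD1 fell 1.85-fold in control cells (-0.88 ± 0.13, adjusted p = 0.000481) and 1.56-fold in RHOXF1 cells (-0.64 ± 0.13, adjusted p = 0.0123), a call lost without RHOXF1 replicate 3 at 24 h or at 48 h (adjusted p up to 0.0633). The RHOXF2 difference was -0.47 ± 0.13 (adjusted p = 0.0672), and without replicate 3 at 48 h it was -0.62 ± 0.12 (adjusted p = 0.0134). PSMD2, the other scaffold subunit of the base, read 9.94, 9.91 and 10.18 at 24 h and 9.79, 9.59 and 9.72 at 48 h in control cells. PSMD2 read 10.10, 10.16 and 10.21 at 24 h and 9.90, 9.63 and 9.92 at 48 h with RHOXF1, and 10.01, 10.13 and 10.22 at 24 h and 9.84, 9.82 and 10.05 at 48 h with RHOXF2. It fell in control cells (-0.31 ± 0.10, adjusted p = 0.0399), a call kept in 2 of the 6 fits with 1 array left out, those without replicate 1 at 24 h or at 48 h (adjusted p up to 0.147 in the others). In RHOXF1 cells a difference of -0.34 ± 0.10 did not pass (adjusted p = 0.0574). PSMD4, the ubiquitin receptor of the base, differed by -0.21 ± 0.08 in control cells (adjusted p = 0.0751).

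In the lid, 5 of 6 members fell in control cells. PSMD11, which is known to promote assembly of capped proteasomes, measured 10.93, 11.11 and 11.06 in control cells at 24 h and 10.61, 10.34 and 10.49 at 48 h. PSMD11 with RHOXF1 measured 10.98, 10.98 and 10.95 at 24 h and 10.37, 10.35 and 10.36 at 48 h, and with RHOXF2 10.90, 11.13 and 10.98 at 24 h and 10.49, 10.52 and 11.08 at 48 h. It fell in control (-0.55 ± 0.12, adjusted p = 0.00514) and RHOXF1 cells (-0.61 ± 0.12, adjusted p = 0.0122), where the 48 h arrays were nearly alike. The RHOXF1 call was lost without replicate 2 or 3 at 24 h or replicate 3 at 48 h (adjusted p up to 0.0594). In RHOXF2 cells replicate 3 at 48 h lay among the 24 h arrays. The difference was -0.31 ± 0.12 with it (adjusted p = 0.191) and -0.50 ± 0.09 without it (adjusted p = 0.00892). PSMD12 read 9.52, 9.59 and 9.72 at 24 h and 9.23, 8.85 and 9.29 at 48 h in control cells. The RHOXF1 arrays of PSMD12 read 9.65, 9.63 and 9.68 at 24 h and 9.26, 9.07 and 9.29 at 48 h, and the RHOXF2 arrays 9.60, 9.71 and 9.76 at 24 h and 9.39, 9.01 and 9.42 at 48 h. All 3 kinds were separated by time, and control (-0.49 ± 0.12, adjusted p = 0.00896) and RHOXF1 cells (-0.45 ± 0.12, adjusted p = 0.0376) passed. The RHOXF1 call was lost without any 1 of the 6 arrays (adjusted p up to 0.136), and the control call without replicate 2 at 48 h (adjusted p = 0.0521).

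PSMD6, PSMD14 and PSMD3 complete the lid members that fell. PSMD6 went from 8.99, 9.16 and 9.24 to 8.62, 8.47 and 8.76 in control cells (-0.51 ± 0.10, adjusted p = 0.00238). With RHOXF1 PSMD6 went from 9.14, 9.19 and 9.18 to 8.79, 8.80 and 8.71, and with RHOXF2 from 9.06, 9.21 and 9.27 to 8.81, 8.72 and 9.06. The RHOXF1 fall of -0.40 ± 0.10 passed as well (adjusted p = 0.0276), and of the fits with 1 array left out only that without replicate 1 at 24 h kept it (adjusted p up to 0.121). PSMD14, the deubiquitinase of the lid, went from 10.50, 10.60 and 10.64 to 10.18, 10.07 and 10.12 in control cells (-0.46 ± 0.08, adjusted p = 0.00151). RHOXF1 arrays had PSMD14 at 10.64, 10.60 and 10.70 at 24 h and 10.38, 10.55 and 10.29 at 48 h, and RHOXF2 arrays at 10.56, 10.69 and 10.73 at 24 h and 10.45, 10.41 and 10.50 at 48 h. PSMD14 was separated by time in all 3 kinds of cell. PSMD3 went from 11.22, 11.09 and 11.24 to 10.91, 10.86 and 10.79 in control cells (-0.33 ± 0.08, adjusted p = 0.0109). PSMD3 values were 11.34, 11.26 and 11.16 at 24 h and 10.98, 11.07 and 11.03 at 48 h with RHOXF1, and 11.32, 11.28 and 11.30 at 24 h and 10.97, 11.04 and 11.26 at 48 h with RHOXF2. It too was separated by time in every kind of cell. PSMD8 differed by -0.08 ± 0.09 in control cells and did not pass (adjusted p = 0.586).

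Of the 3 chaperones that assemble the base, 0 passed in control cells. PSMD5, among the members with the larger positive differences over time, read 4.24, 4.11 and 4.21 in control cells at 24 h and 4.35, 4.27 and 4.60 at 48 h. PSMD5 with RHOXF1 read 3.995, 4.21 and 4.26 at 24 h and 4.30, 4.46 and 4.37 at 48 h, and with RHOXF2 3.91, 4.35 and 4.23 at 24 h and 4.24, 4.29 and 4.36 at 48 h. Control and RHOXF1 cells were separated with the 48 h arrays above (0.22 ± 0.11, adjusted p = 0.168 in control cells). PSMD9 and PSMD10 differed by -0.11 ± 0.14 and -0.23 ± 0.11 in control cells (adjusted p = 0.604 and 0.165). Of the chaperones of the core, 1 of 4 fell. PSMG1 went from 10.96, 11.05 and 11.12 to 10.78, 10.50 and 10.66 in control cells (-0.40 ± 0.09, adjusted p = 0.00863). PSMG1 went from 11.09, 11.16 and 10.94 to 10.75, 10.93 and 10.74 with RHOXF1 and from 11.03, 11.17 and 11.12 to 10.71, 10.91 and 10.96 with RHOXF2. It was lower at 48 h without overlap in each. PSMG3 read 10.79, 11.22 and 10.83 at 24 h and 10.66, 11.19 and 11.41 at 48 h in control cells. PSMG3 read 10.78, 11.03 and 10.48 at 24 h and 11.15, 11.23 and 11.30 at 48 h with RHOXF1, and 10.57, 10.48 and 10.995 at 24 h and 11.17, 10.85 and 10.86 at 48 h with RHOXF2. It was higher at 48 h without overlap only in RHOXF1 cells and did not pass (0.46 ± 0.18, adjusted p = 0.148). PSMG2 and PSMG4 differed by -0.01 ± 0.07 and -0.01 ± 0.08 in control cells.

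Of the activators, 1 of 4 fell in control cells. PSME3, the activator subunit of nuclear proteasomes, measured 11.59, 11.38 and 11.69 in control cells at 24 h and 11.10, 10.52 and 10.62 at 48 h. PSME3 measured 11.60, 11.56 and 11.74 at 24 h and 11.03, 11.07 and 10.96 at 48 h with RHOXF1, and 11.68, 11.78 and 11.67 at 24 h and 10.997, 10.96 and 11.57 at 48 h with RHOXF2. It fell 1.75-fold in control cells (-0.81 ± 0.15, adjusted p = 0.00191) and by 0.62 ± 0.15 in RHOXF1 cells (adjusted p = 0.0262). The RHOXF1 call was kept only without replicate 1 at 24 h or replicate 2 at 48 h (adjusted p up to 0.126 without the others). The RHOXF2 difference was -0.53 ± 0.15 (adjusted p = 0.0743) with replicate 3 at 48 h and -0.73 ± 0.13 (adjusted p = 0.00892) without it. PSME1, an interferon-inducible activator subunit of the cytosol, read 8.94, 8.25 and 8.72 in control cells at 24 h and 9.24, 8.73 and 8.63 at 48 h. PSME1 with RHOXF1 read 9.06, 8.60 and 8.73 at 24 h and 8.90, 8.84 and 9.00 at 48 h, and with RHOXF2 9.06, 8.72 and 8.53 at 24 h and 8.92, 8.96 and 9.22 at 48 h. These values overlapped, and the control difference was 0.23 ± 0.18 (adjusted p = 0.379). Its partner PSME2 differed by -0.03 ± 0.14 in control cells (adjusted p = 0.892). PSME4, the activator known from spermatids, read 10.23, 10.60 and 10.37 at 24 h and 9.99, 10.14 and 10.31 at 48 h in control cells. PSME4 read 10.33, 10.46 and 10.41 at 24 h and 10.26, 10.10 and 10.13 at 48 h with RHOXF1, and 10.24, 10.39 and 10.52 at 24 h and 10.25, 10.06 and 10.15 at 48 h with RHOXF2. Only RHOXF1 cells were separated by time, and no difference of PSME4 passed (-0.25 ± 0.10, adjusted p = 0.0985 in control cells). PSMF1, the inhibitor, read 10.88, 10.35 and 10.59 at 24 h and 10.57, 10.53 and 10.36 at 48 h in control cells. PSMF1 read 11.02, 10.63 and 10.81 at 24 h and 10.51, 10.47 and 10.48 at 48 h with RHOXF1, and 11.01, 10.71 and 10.75 at 24 h and 10.46, 10.51 and 11.002 at 48 h with RHOXF2. RHOXF1 cells were separated with the 48 h arrays below, and the difference did not pass (-0.33 ± 0.14, adjusted p = 0.197).

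**Figure D4:**
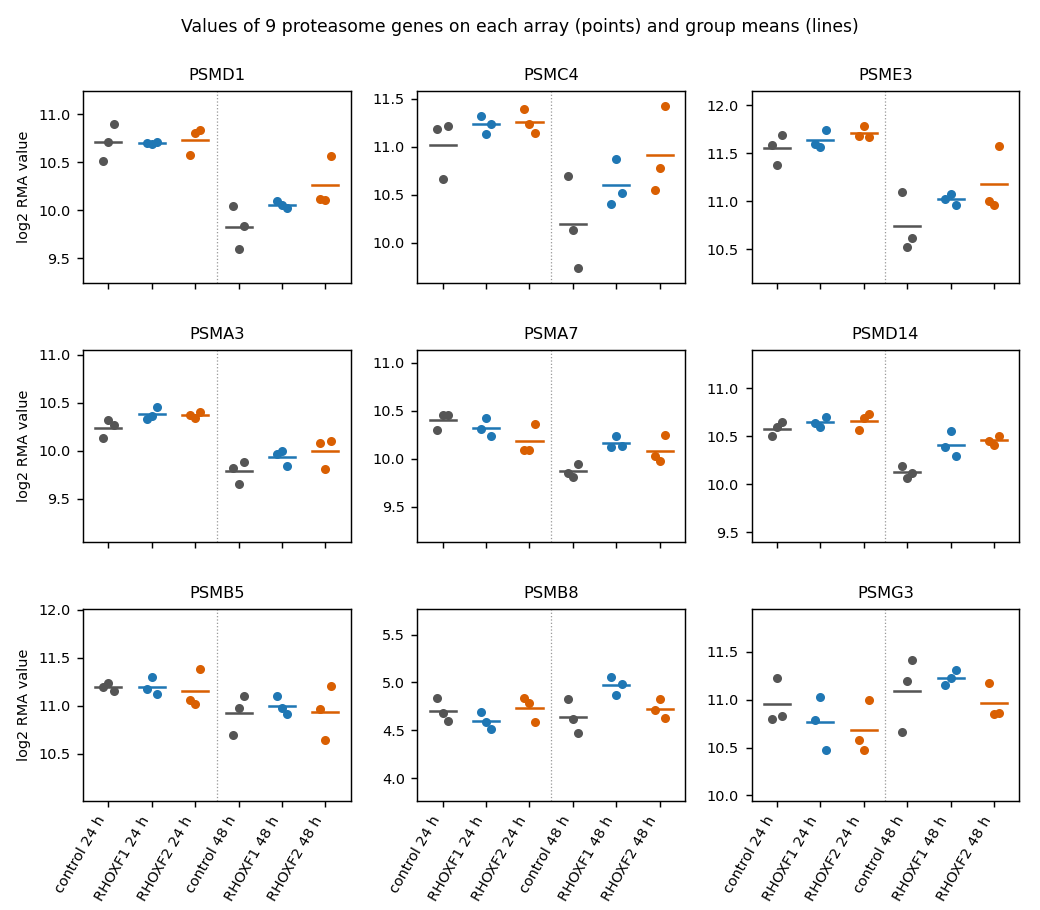
Log2 RMA values of 9 proteasome genes on each of the 18 arrays, with the group means as lines; every panel spans 2 log2 units. PSMD1, PSMC4 and PSME3 lie lower at 48 h in all 3 kinds of cell, with 1 RHOXF2 array high, and PSMB8 is highest in RHOXF1 cells at 48 h.

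At 48 h, proteasome clusters tended to read higher in RHOX cells than in control cells, and no single member passed the test. In RHOXF1 cells 0 of 51 clusters were called, beside 0.00943% of all named clusters. Of the 47 distinct clusters 41 were higher, beside 52.6% of all named clusters. For 12 all RHOXF1 arrays lay above all control arrays and for 0 below, beside 7.17% and 5.39%. An unadjusted p under 0.05 was found for 7 in the higher direction and 0 in the lower, beside 4.1% and 3.12%. With 1 array left out the 7 became 5 to 12, the most without control replicate 1. The median was 0.12 over the 51 clusters and 0.01 over all named clusters. By role, 7 of 8 alpha ring clusters, 6 of 7 ATPase clusters and 5 of 6 lid clusters were higher, against 2 of 4 structural beta clusters. PSMC6 cluster 7974380 was 0.41 ± 0.14 (adjusted p = 0.544) above control with no overlap, while cluster 8150870 was at -0.03 ± 0.11. PSMC4 was 0.41 ± 0.22 above control (adjusted p = 0.735), and its arrays overlapped those of control cells. The lowest members were PSMD11 at -0.12 ± 0.12 (adjusted p = 0.872) and PSMA1 at -0.07 ± 0.07 (adjusted p = 0.877).

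In RHOXF2 cells at 48 h 0 of 51 clusters were called, beside 0.0943%. Here 42 of 47 were higher than control, beside 53.9% of all named clusters, and 9 did not overlap in the higher direction and 0 in the lower, beside 6.59% and 5.24%. An unadjusted p under 0.05 was found for 14 in the higher direction and 0 in the lower, beside 6.41% and 5.75%. These 14 became 5 without RHOXF2 replicate 3 and 8 without control replicate 2. The median was 0.13 over the 51 clusters and 0.01 over all named clusters. By role, 7 of 7 ATPase clusters, 6 of 6 lid clusters and 6 of 8 alpha ring clusters were higher, against 2 of 4 chaperones of the core. PSMC4 was 0.73 ± 0.22 above control (adjusted p = 0.228), with an interval at 95% from 0.27 to 1.19. PSMC6 cluster 7974380 followed at 0.50 ± 0.14 (adjusted p = 0.213), PSMD1 at 0.44 ± 0.13 (adjusted p = 0.218) and PSME3 at 0.43 ± 0.15 (adjusted p = 0.266). The other PSMC6 cluster, 8150870, overlapped the control arrays. PSMD14, at 0.33 ± 0.08, had the smallest adjusted p of the members (0.156). The lowest were PSMG3 at -0.13 ± 0.18 and PSMD5 at -0.11 ± 0.11 (adjusted p = 0.824 and 0.732). Without RHOXF2 replicate 3, 37 of 47 were higher, 10 did not overlap in the higher direction, the median was 0.10 and 0 were called. With 2 arrays against 3, groups separate more easily than with 3 against 3. Shares over all named clusters were not computed with that array left out. PSMC4 was then 0.47 ± 0.21 above control, PSMC6 cluster 7974380 0.44 ± 0.16, PSMD14 0.31 ± 0.09, PSMD1 0.29 ± 0.12 and PSME3 0.24 ± 0.13 (adjusted p between 0.793 and 0.988). PSMC6 cluster 8150870 was at 0.07 ± 0.12, PSMG3 at -0.08 ± 0.20 and PSMD5 at -0.14 ± 0.12 without RHOXF2 replicate 3. Without control replicate 1 at 48 h, 2 were called, PSMC4 (0.98 ± 0.21, adjusted p = 0.042) and PSMB3 (0.62 ± 0.13, adjusted p = 0.0386). These comparisons share the 3 control arrays at 48 h with each other and with the comparison of times in control cells. The members' median was lowest on those 3 control arrays.

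**Figure D5:**
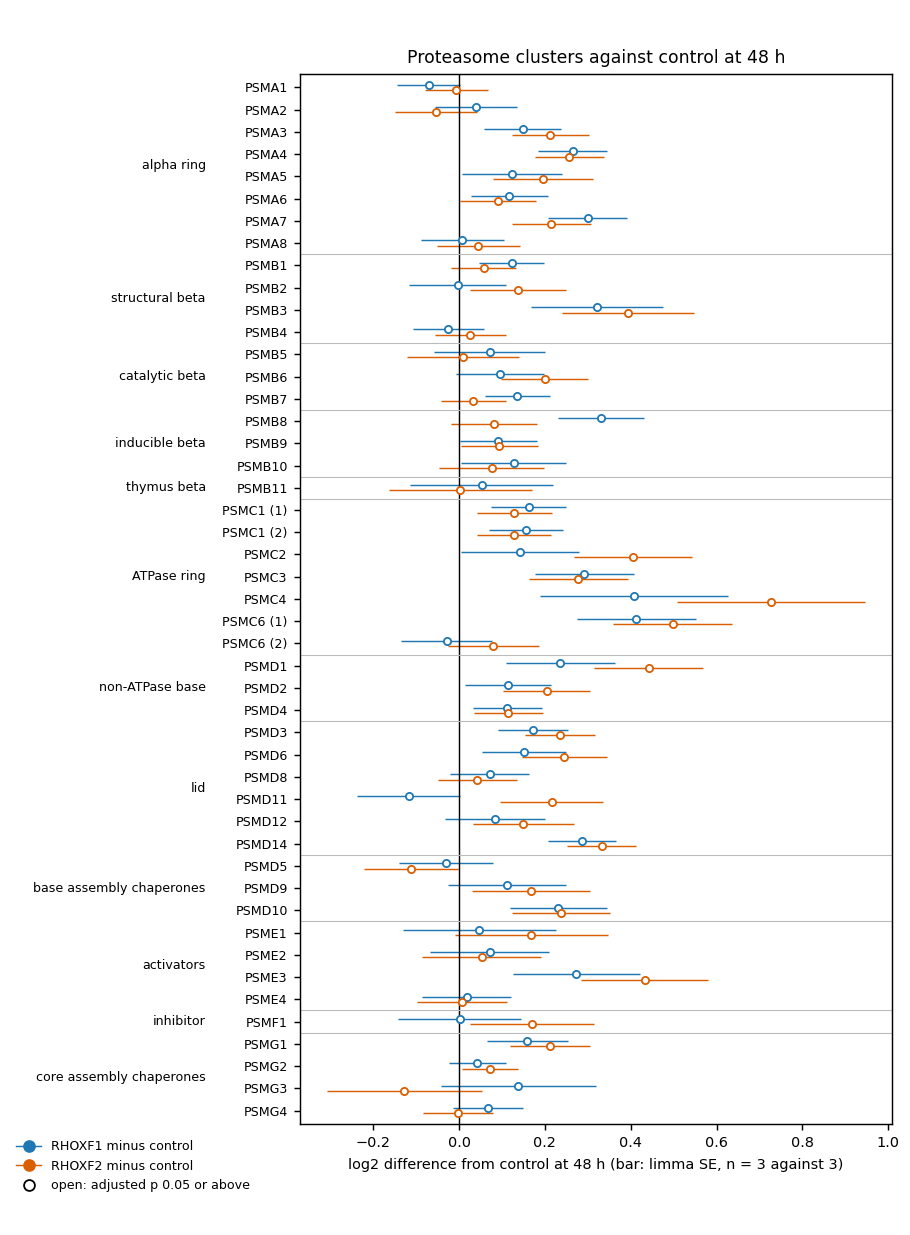
Log2 difference of each proteasome cluster from control at 48 h in RHOXF1 and RHOXF2 cells, with limma's standard error; every point is open because no adjusted p is under 0.05. Most points lie right of 0, and PSMC4 in RHOXF2 cells lies farthest right at 0.73.

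At 24 h the members lay close to control. With RHOXF1, 0 of 51 were called, beside 0.00471% of all named clusters, and 0 had an unadjusted p under 0.05 in either direction, beside 1.62% higher and 3.14% lower. Of the 47, 26 were higher, beside 50.1% of all named clusters, with a median of 0.00. The extremes were PSMF1 (0.22 ± 0.14) and PSMB10 (0.22 ± 0.12) above, and PSMB6 (-0.19 ± 0.10) and PSMG3 (-0.18 ± 0.18) below, with adjusted p between 0.961 and 0.969. With RHOXF2, 0 of 51 were called, beside 0.00943%, and 31 of 47 were higher, beside 48.8% of all named clusters, with a median of 0.03. Of the 47, 1 had an unadjusted p under 0.05, in the lower direction, beside 6.27% lower and 1.72% higher. This was PSMA7, at -0.22 ± 0.09 (adjusted p = 0.562). PSMG3 was at -0.27 ± 0.18 (adjusted p = 0.771), PSMB10 at 0.25 ± 0.12 (adjusted p = 0.646) and PSMC4 at 0.24 ± 0.22 (adjusted p = 0.848). Between RHOXF1 and RHOXF2 cells 0 of 51 clusters were called at 24 h, beside 0.0141% of all named clusters, and 0 of 51 at 48 h, beside 0.0519%. Of the 47 distinct clusters 0 had an unadjusted p under 0.05 at 24 h, beside 1.31% higher and 0.396% lower, and 2 at 48 h, beside 1.55% and 1.98%. At 48 h PSMD11 was -0.33 ± 0.12 in RHOXF1 relative to RHOXF2 cells, PSMG3 0.27 ± 0.18 and PSMB8 0.25 ± 0.10. For PSMD11, RHOXF2 replicate 3, the array that stands apart, lay above the other RHOXF2 arrays. These differences and the unadjusted counts were not repeated without that array. The test of whether a RHOX effect differed between 48 h and 24 h called 0 of 51 clusters for RHOXF1, beside 0% of all named clusters, and 0 of 51 for RHOXF2, beside 0.0141%. In each test 4 of the 47 distinct clusters had an unadjusted p under 0.05, all in the direction of a higher difference from control at 48 h, beside 3.08% of all named clusters for RHOXF1 and 5.44% for RHOXF2, and 0 in the other direction, beside 1.62% and 3.32%. The effects at 48 h are therefore not shown to differ from those at 24 h. For PSMA7 the difference between the times was 0.43 ± 0.13 with RHOXF2 (adjusted p = 0.512). This value and the unadjusted counts of these tests were also not repeated without RHOXF2 replicate 3 at 48 h.

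Some other genes of the ubiquitin-proteasome pathway were called in the same comparisons of times. VCP, the segregase that extracts ubiquitinated proteins, fell in control (-0.60 ± 0.09, adjusted p = 0.000739) and RHOXF1 cells (-0.38 ± 0.09, adjusted p = 0.0314) between the times, and its partner NPLOC4 fell in control cells (-0.32 ± 0.10, adjusted p = 0.0275). These were the 2 of 7 measured shuttle and segregase genes called in control cells, where 7.89% of all named clusters fell. Of 13 other proteasome-bound proteins 2 fell in control cells, beside the same 7.89%. They were USP14, a deubiquitinase of the base (-0.33 ± 0.08, adjusted p = 0.0097), and POMP, the maturation chaperone of the core (-0.32 ± 0.08, adjusted p = 0.0117). Both fell in RHOXF1 cells as well (-0.35 ± 0.08 and -0.30 ± 0.08, adjusted p = 0.019 and 0.0405), where 1.35% of all named clusters fell. Of 3 ubiquitin and E1 genes measured, 0 were called in any comparison of times, and of 4 regulators of proteasome genes, NFE2L1 among them, 0 were called. Of 7 class I presentation genes 2 rose in control cells, where 9.89% of all named clusters rose. TAP1, a peptide transporter subunit whose gene shares a promoter region with PSMB9, rose in control (0.51 ± 0.09, adjusted p = 0.00194), RHOXF1 (0.50 ± 0.09, adjusted p = 0.00901) and RHOXF2 cells (0.49 ± 0.09, adjusted p = 0.0242). TAPBP, the tapasin gene, rose in control cells (0.51 ± 0.15, adjusted p = 0.0246). Of all named clusters, 3.06% rose in RHOXF1 cells, and 1.24% were called in either direction in RHOXF2 cells. With 1 array left out in turn the control calls of VCP and TAP1 held in every fit, and each other call of these pathway genes was lost without at least 1 array (adjusted p up to 0.144).

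Against control, 0 genes of these lists were called at either time, beside at most 0.0943% of all named clusters. The smallest p was that of the neuronal intermediate filament gene INA, on the list of HEK293 genes, at 0.79 ± 0.19 with RHOXF2 at 48 h (adjusted p = 0.148), with every array above control. CD14 and TNP1, markers of other cell types, were at -0.46 ± 0.12 and -0.40 ± 0.10 with RHOXF2 at 24 h (adjusted p = 0.377 and 0.388). Among the pathway genes the smallest p was that of ZFAND2A, a stress-inducible proteasome-binding protein, at 0.43 ± 0.13 with RHOXF1 and 0.37 ± 0.13 with RHOXF2 at 48 h (adjusted p = 0.489 and 0.265). ERAP1, the peptide-trimming aminopeptidase, was at 0.31 ± 0.10 with RHOXF1 at 24 h and 0.31 ± 0.10 at 48 h (adjusted p = 0.961 and 0.505). The interferon regulatory factor IRF1 was at 0.32 ± 0.11 and VCP at 0.29 ± 0.09 with RHOXF2 at 48 h (both adjusted p = 0.253). With 1 array left out in turn IRF1 was between 0.20 and 0.39 and VCP between 0.18 and 0.36 (adjusted p up to 0.988). The values of INA and ZFAND2A with RHOXF2 at 48 h are not given without replicate 3, the array that stands apart. Among 6 markers that HEK293 cells are known to express, NEFL and the intermediate filament gene VIM rose between the times in control cells (0.24 ± 0.08 and 0.46 ± 0.11, adjusted p = 0.0349 and 0.0113). In that comparison 9.89% of all named clusters rose and 7.89% fell. Of 10 measured markers of other cell types 1 was called there, the monocyte gene CD14 (-0.46 ± 0.12, adjusted p = 0.0122). The part of these changes in the proteasome differences was not tested.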

How the data were processed

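RNA of HEK293 cells was hybridised to 18 Human Gene 1.0 ST arrays, per the array descriptions (the series text names an exon array). The authors deposited log2 expression values, which per the labels' protocols came from RMA in Affymetrix Expression Console 3.1, so background correction, quantile normalization and summarising had been done. The genome build of the array annotation is not given in the sources used here, and the only positions printed are those of RefSeq's promoter windows. The table holds 33297 clusters, and the probe table gives a symbol to 21214, of which 19460 have 1 symbol and 1754 several. No columns and no arrays were left out. All 51 member clusters matched RefSeq by Entrez identifier, and the promoter sequences are RefSeq's.

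The fit of each named cluster used limma 3.58.1 under R 4.3.3, with lmFit and eBayes, 1 mean per group over all 18 arrays, 12 residual and 6.50 prior degrees of freedom, and no replicate block. The 11 comparisons were tested two-sided with Benjamini-Hochberg adjustment over the 21214 clusters at 0.05, and "fell" and "rose" mean past this threshold. Errors after ± are limma's moderated standard errors, for 3 arrays against 3 where a pair of groups is compared with all arrays. Where an array was left out, its group has 1 array fewer. The tests of whether a RHOX effect differed between the times use the RHOX and control arrays of both times. The code was tested on simulated data. The number of arrays limits the precision. The labels do not say whether the triplicates were separate cultures, so p-values measure the spread between these arrays.

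The members, gene lists, motifs and tests were chosen with earlier results of these data known. Members that passed in any comparison, the 2 highest and 2 lowest of each comparison with control and of times, and the catalytic, inducible, germ line and thymus subunits were given in full, and a gene with 2 clusters by the brighter with the other beside it. From each list of other pathway genes those that passed and those with the smallest p against control were named. Replicate numbers were checked for pairing: the residual correlation of same-numbered arrays exceeded 0.1 in 8 of the 9 pairs of the 24 h arrays but in only 2 of the 9 pairs of the 48 h arrays. It ran from 0.06 to 0.52 at 24 h and from -0.35 to 0.24 at 48 h. The main fit has no block, so its 24 h comparisons leave out this likeness of same-numbered arrays. With a replicate block 0 members were called against control at 24 h. Alternatives covered normalization, the clusters tested, the arrays in the fit, the prior, a replicate block and each array left out. Shares over all named clusters were not computed for these alternatives.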

Additional observations from a re-analysis of the deposited data

How the results depend on the processing

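The control count of 24 clusters between the times was 15 when only the 6 control arrays entered the fit. The members' control median was -0.236 over the 51 clusters, where PSMB8 and PSMB9 each count 3 times. It was -0.332 over the members above the median level of all clusters, and between -0.309 and -0.228 over the 51 with 1 array left out. The RHOXF1 count of 10 over the 51 clusters was 16 with only its own arrays, 3 when clusters without a symbol were also tested, and 0 to 9 with 1 array left out. The RHOXF2 count of 1 was 0 after repeated quantile normalization, cyclic loess, with only its own arrays, and with all clusters tested, and 0 to 6 with 1 array left out. Its median of -0.176 over the 51 clusters was -0.116 after repeated quantile normalization. With the replicate block, 23 control, 11 RHOXF1 and 4 RHOXF2 clusters were called between the times. RHOXF2 against control at 48 h had 0 to 2 calls with 1 array left out. Differences near 0 that were not called changed sign with 1 array left out: between the times in control cells PSMB8 (from -0.158 to 0.0182, with 0.00247 between), PSMA8 (from -0.175 to 0.0323, with 0.00539 between) and PSMB11 (from -0.313 to 0.0210), with RHOXF2 PSMG3 at 48 h (from -0.343 to 0.0345) and UBA6 at 24 h (from -0.0158 to 0.136). The causes were not tested. Counting identical clusters once was chosen after seeing the data. For named genes and comparisons, 90 in all, 1285 alternative values kept direction and status, called or not, 129 lost a call, 7 gained 1 and 7 changed sign. The 90 include differences that were not called as reported, for which kept status means staying uncalled. Only a called difference can lose a call, so these totals do not measure how stable the calls are. The settings that only counted fewer clusters reuse the reported fit and could not change a value. Signal over background limits PSMA8, PSMB8, PSMB11 and PSMD5, which lay no higher than the 17.9 percentile of named clusters on any array, and no detection calls were used.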
